A study of Mus musculus with 11 samples.

Results

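Distal SOX2 ChIP-seq peaks of mouse epiblast stem cells (EpiSCs) that were free of the other 4 profiled transcription factors (TFs) numbered 41701, or 68.1% (67.7 to 68.5%) of the 61243 distal peaks in the EpiSC SOX2 list. These SOX2-only peaks were selected on the peak lists themselves. A peak was a member when it lay on chromosomes 1 to 19 or X, its midpoint was more than 1000 bp from every transcription start site (TSS), and it shared no base with a ZIC2, OTX2, POU5F1 or POU3F1 peak of the same cells. The absence of the other TFs was therefore set by the selection and is not a result. The whole series comprises 1004445 peaks in 10 lists, and 63672 of the 63751 EpiSC SOX2 peaks lay on the chromosomes used.

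The 5 TFs, ZIC2, OTX2, SOX2, POU5F1 and POU3F1, were profiled in 2 cultures of 1 EpiSC line of strain 129/Sv. EpiSCs were grown feeder-free with activin at 20 ng/ml and Fgf2 at 10 ng/ml, and the activin-free EpiSCs (EpiSCA) had been freed of activin 18 h before harvest. In both cultures, each TF was expressed transiently from the plasmid pCAGGS-BLRP-BirA, which carries a CAG promoter, with a peptide tag that is biotinylated, alongside the biotin ligase BirA, and its chromatin was recovered with streptavidin. The peaks thus record the tagged TF added to the endogenous one. There was 1 library for each TF in each culture, so no replicate error exists, no p-value is given, and the shares carry 95% Wilson intervals and their differences 95% Newcombe intervals that cover counting error only. A peak's score is -10 log10 of the p-value that the peak caller gave it, and 50 is the lowest listed. Read depth is unknown, and an effect of activin cannot be told apart from a difference between libraries.

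SOX2 is an HMG box protein that binds the minor groove of a short AT-rich sequence and bends the DNA. In pluripotent cells it often binds beside the POU factor POU5F1 at composite sites, and in neural progenitors it works with other POU partners. EpiSCs correspond to the postimplantation epiblast, in which SOX2 serves both pluripotency and the start of neural fate.

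The highest-scoring SOX2-only peaks are shown first, because several of them lie in tandem repeats that can be read directly. Each line gives the peak midpoint and 50 bp to either side on mm9, 5′ to 3′. Capitals mark SOX words, here defined as ACAAAA and ACAAAG together with ACAATA and ACAATG, searched on both strands. Capitals of neighbouring words can run together.
Fam155a intron member (chr8:9297128-9297228, plus strand): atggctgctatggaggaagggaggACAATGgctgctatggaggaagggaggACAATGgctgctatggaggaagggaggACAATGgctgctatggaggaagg
Aven intron member (chr2:112444158-112444258, plus strand): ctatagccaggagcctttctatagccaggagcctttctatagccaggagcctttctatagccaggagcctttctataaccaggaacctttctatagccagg
Tmcc1 intron member (chr6:116091840-116091940, plus strand): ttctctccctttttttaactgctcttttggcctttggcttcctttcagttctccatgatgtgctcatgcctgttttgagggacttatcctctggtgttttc
Intergenic member of chromosome 11 (chr11:25068066-25068166, plus strand): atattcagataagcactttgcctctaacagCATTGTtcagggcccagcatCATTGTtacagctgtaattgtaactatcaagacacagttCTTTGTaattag
Enpp2 intron member (chr15:54686440-54686540, plus strand): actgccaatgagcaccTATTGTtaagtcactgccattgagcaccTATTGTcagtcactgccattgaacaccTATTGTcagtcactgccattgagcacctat

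Of the 10 highest-scoring members, 4 lay in tandem repeats, which were recognised as windows reaching 100 bp to either side of the midpoint in which at least 80% of bases matched the base 1 period away. The highest-scoring member, from 9296379 to 9297976 on chromosome 8 in an intron of Fam155a, had a score of 3100. It had a period of 27 bp with 100% matching bases and 7 SOX words. The highest score of SOX2 peaks within 1000 bp of a TSS was also 3100, and whether the score has an upper limit there was not tested. The peak in an intron of Aven, a cell death inhibitor, had a score of 2810 and a period of 18 bp but no SOX word. The Enpp2 peak, in the gene of the lysophospholipase autotaxin, had a score of 1062, a period of 27 bp and 7 SOX words. These 3 had activin-free SOX2 peaks, with scores of 1599, 2570 and 1009 in this order. Tandem repeats of this kind were rare among members as a whole, at 47 of 41701 (0.113%) and 0.235% of flanks, and they made up 4 of the 12 members with a score of 1000 or more. At a score of 500 or more they made up 2.63% of members (1.34 to 5.11%) and 2.76% of SOX2 peaks with another TF (1.27 to 5.90%).

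The other 6 of the 10 were not tandem repeats by this measure. They comprised an intron peak of Tmcc1 (score 1178), an intergenic peak at 25066860 to 25069372 on chromosome 11 (1090), an intron peak of Abca1, the cholesterol efflux transporter (1055), and an intergenic peak on chromosome 1 (1032) whose nearest protein-coding gene, the heparan sulfate sulfotransferase gene Hs6st1, started 606 kb away. The remaining pair is described with the chromosomes. All 10 overlapped an activin-free SOX2 peak, and the Aven and chromosome 11 peaks were among those that also overlapped an activin-free POU5F1 peak.

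The 5 members with the most SOX words held 20 to 25 SOX words within 100 bp of the midpoint, and each contained a run of at least 3 ACAAA units or of the reverse complement. Their scores ranged from 52.1 to 537, so that 4 of the 5 lay below the members' median of 94.0, and all 5 had an activin-free SOX2 peak with scores of 123 to 365. For comparison, the following are the 3 highest-scoring distal SOX2 peaks that overlapped both POU5F1 and POU3F1 and neither ZIC2 nor OTX2, with scores of 989, 987 and 739. None of these 3 stretches held a SOX word, although 84.7% of SOX2 peaks with POU factors only held one within 100 bp of the midpoint.
SOX2 peak with POU5F1 and POU3F1, 1 (chr10:14423549-14423649, plus strand): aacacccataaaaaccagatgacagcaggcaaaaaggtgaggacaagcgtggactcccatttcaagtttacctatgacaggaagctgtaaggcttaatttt
SOX2 peak with POU5F1 and POU3F1, 2 (chr17:21956074-21956174, plus strand): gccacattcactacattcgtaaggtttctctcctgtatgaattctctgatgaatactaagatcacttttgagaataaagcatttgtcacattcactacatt
SOX2 peak with POU5F1 and POU3F1, 3 (chr11:13806045-13806145, plus strand): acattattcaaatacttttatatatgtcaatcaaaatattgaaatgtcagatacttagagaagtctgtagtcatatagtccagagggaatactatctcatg

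SOX words were common at SOX2-only peaks. Of the windows reaching 100 bp to either side of member midpoints, 86.8% (86.5 to 87.1%) held at least 1 SOX word, compared with 57.7% of windows of the same length centred 1000 bp to either side, a difference of 29.1 percentage points (28.6 to 29.5). The share was 84.3% at distal SOX2 peaks with another TF, 2.48 points lower than at members (1.88 to 3.09). Measured against their own flanks, however, these peaks with another TF had a difference of 28.3 points, close to the 29.1 points of members. That difference was 25.9 points at SOX2 peaks with POU factors only and 40.6 points at those with ZIC2 only. The excess of SOX words over flanks was therefore not particular to SOX2-only peaks. Among the 4 words, ACAAAA differed most, with 51.1% of members against 44.3% of SOX2 peaks with another TF, a difference of 6.79 points (5.95 to 7.64). ACAATA was also more frequent in members, by 2.57 points (1.82 to 3.32), ACAAAG was less frequent, with a difference of -1.18 points (-2.01 to -0.357), and for ACAATG the interval of the difference, from -1.24 to 0.318 points, included 0. The direction for ACAAAG turned when repeated sequence, a measure described below, was left out of both classes. Among windows with fewer than 100 genomic copies, ACAAAG occurred in 41.1% of members and 38.9% of SOX2 peaks with another TF, a difference of 2.12 points (1.26 to 2.97), and ACAATG in 31.5 and 30.1%, a difference of 1.35 points (0.546 to 2.15). The share of members with a SOX word did not rise with peak score and was 87.6% in the lowest and 84.9% in the highest of 5 score groups, which are the quintiles of all distal SOX2 scores.

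**Figure D1:**
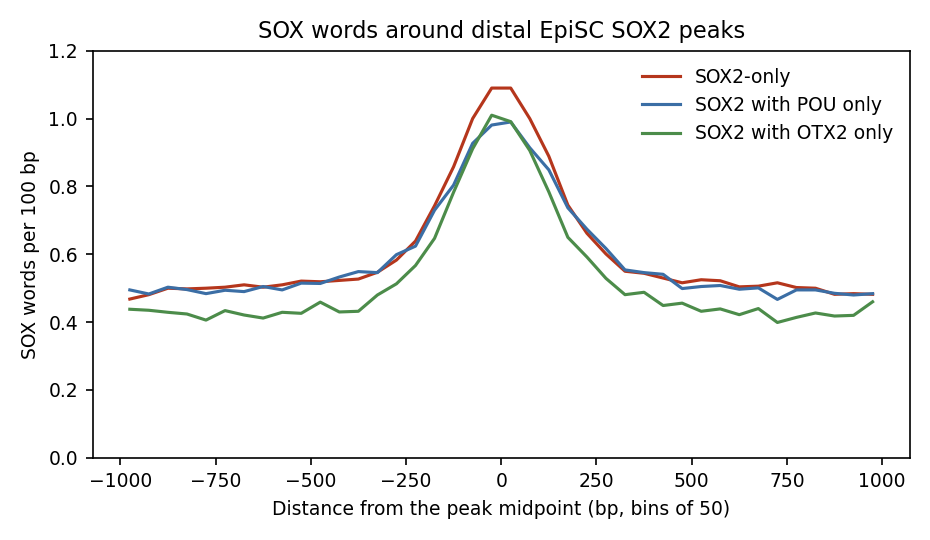
SOX words per 100 bp in bins of 50 bp (vertical axis) by distance from the peak midpoint in bp (horizontal axis) for SOX2-only peaks, SOX2 peaks with POU factors only and SOX2 peaks with OTX2 only. All 3 lines peak at the midpoint, at 1.09 words per 100 bp for SOX2-only peaks, and fall to between 0.4 and 0.5 at 1000 bp.

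In the profile around midpoints, SOX words at members rose from 0.468 per 100 bp at the left edge to 1.09 in both central bins. From 300 to 350 bp to the right of the midpoint the value was 0.550, and from there outward it lay between 0.482 and 0.550. Windows with 2 words, and with each higher number, were a larger share of members than of flanks. Windows with 3 words made up 16.7% of members and 5.42% of flanks, and windows with 8 or more made up 1.46% and 0.0971%. Windows without a SOX word made up 13.2% of members and 42.3% of flanks.

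The starts of SOX words on the same strand were most often 5 bp apart, among spacings of 5 to 40 bp. Words at this spacing share a base. This spacing occurred in 5.71% of member windows and 1.41% of flanks, where it was also the most frequent. Spacings of 10 and 16 bp followed, each in 3.74% of members, with 0.769 and 0.580% of flanks. The ratio of members to flanks was 4.05 at 5 bp and 6.44 at 16 bp, and was highest at 26 bp with 6.62. A run of 3 ACAAA units was found at 1115 members, or 2.67% (2.52 to 2.83%), against 0.477% of their flanks, 1.98% of SOX2 peaks with another TF and 2.09% of SOX2 peaks with POU factors only.

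Hexamers were counted without regard to known motifs. Among those in at least 5% of member windows, the 10 with the highest share over flanks had ratios of 1.97 to 2.23. They included the SOX words ACAAAG (2.10), ACAATA (2.04) and ACAATG (2.01), and the hexamers AACAAT (2.22), CAAAGG (2.05) and CAACAA (1.97). CAATTG led with 7.45% of members and 3.34% of flanks, and the other 3 were CAATAC (2.22), GAATGC (2.02) and AATGCC (2.01). For CAATAC and AATGCC the ratio was 1.71 and 1.5 in windows with fewer than 100 genomic copies.

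Words of other TFs were compared in the same way, each searched on both strands. The octamer, ATGCAAAT or its variant ATGCATAT, bound by POU factors, occurred in 2.61% of members (2.46 to 2.77%) and 2.63% of their flanks. At SOX2 peaks with POU factors only it occurred in 4.18%, and members minus these gave -1.57 points (-1.99 to -1.18), but their flanks held it at 4.15%. The composite form TTGTNATGC, a SOX and a POU recognition sequence side by side, was present in 0.976% of members against 0.498% of flanks. At SOX2 peaks with POU factors only it was present in 1.35%, against 0.664% of their flanks. The shares were 1.67% with OTX2 only and 1.58% with ZIC2 only, so it was not particular to overlap with POU factors. The OTX2 word GGATTA occurred in 8.50% of members and 7.94% of flanks, and the ZIC word CAGCAGG in 2.78% and 3.12%, compared with 10.7% of SOX2 peaks with ZIC2 only. Among words of other TF families, TGACTCA, the AP-1 site, was found in 3.0% of members and 2.67% of flanks, GGAATG, the TEAD site, in 9.19% and 10.1%, and the E-box CAGCTG in 5.15% and 5.66%. TTGGCA, part of the NFI site, reached 12.0% of members and 8.88% of flanks. In members of repeated sequence, defined in the following paragraph, TTGGCA occurred in 28% and GGATTA in 21.1%, with 4.22 and 6.0% of their flanks. In members with fewer than 100 copies the direction for GGATTA turned, with 6.72% of members and 8.21% of their flanks, a difference of -1.49 points (-1.81 to -1.16). For TTGGCA the shares there were 9.78 and 9.54%, and the interval of the difference, -0.134 to 0.609 points, included 0.

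A share of the SOX2-only peaks lay in sequence that occurs many times in the genome. To measure this, 10 adjacent 20-base words of each window were counted in chromosomes 1 to 19 and X on both strands, and a window was called repeated when the median of the 10 was at least 100 copies. This measure was chosen after the data had been seen. Repeated windows made up 12.4% (12.0 to 12.7%) of members and 1.60% (1.43 to 1.79%) of distal SOX2 peaks with another TF, a difference of 10.8 points (10.4 to 11.1). At SOX2 peaks with POU factors only the share was 0.522%, and at those with OTX2 only 4.12%. The flanks differed as well, with 14.9% repeated windows beside members and 4.46% beside SOX2 peaks with another TF, and members minus their own flanks gave -2.55 points (-2.95 to -2.15). Activin-free SOX2 peaks chosen by the same rule gave 13.9% (13.6 to 14.2%). Peaks of the other EpiSC lists that were free of the other TFs gave 0.395% for POU3F1, 2.79% for POU5F1, 3.34% for ZIC2 and 4.39% for OTX2.

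**Figure D2:**
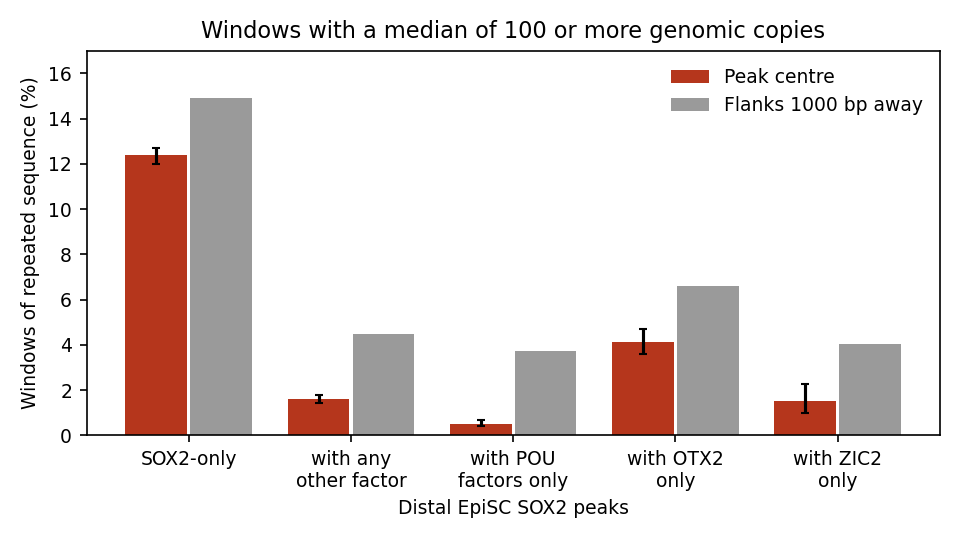
Percentage of windows, reaching 100 bp to either side of their centre, with a median of 100 or more genomic copies (vertical axis) at distal EpiSC SOX2 peaks and in flanks 1000 bp away, for SOX2-only peaks and 4 classes with other TFs. Error bars are 95% Wilson intervals. SOX2-only peaks stand at 12.4% and all 4 other classes at 4.12% or less, and every class lies below its flanks.

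Individual 20-base words recurred in many members. There were 7097 words, excluding simple repeats, that each occurred in 20 or more member windows, and 9924 members (23.8%) held at least 1 of them, compared with 10.6% of member flanks, 3.88% of SOX2 peaks with another TF and 2.22% of SOX2 peaks with POU factors only. The words were picked for their frequency in members, so these shares are a description. The most frequent, named word A here, occurred in 1277 members, 100 flanking windows and 6 SOX2 peaks with another TF. Taking the most frequent word again after removing windows like those already taken gave words B to H, with 167 to 655 members each. High-scoring members with A and B are printed in the orientation of the word, with the shared word in capitals, to show how far the sequence around it was the same.
Word A, member 1 (chr13:91701430-91701530, minus strand): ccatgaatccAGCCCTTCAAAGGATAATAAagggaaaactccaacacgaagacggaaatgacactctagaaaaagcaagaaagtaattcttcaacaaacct
Word A, member 2 (chr7:58785741-58785841, plus strand): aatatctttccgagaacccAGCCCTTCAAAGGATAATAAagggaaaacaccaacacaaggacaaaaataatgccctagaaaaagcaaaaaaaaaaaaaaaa
Word B, member 1 (chr12:65868339-65868439, minus strand): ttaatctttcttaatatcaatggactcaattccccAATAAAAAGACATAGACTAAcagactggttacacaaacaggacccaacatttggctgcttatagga
Word B, member 2 (chr2:22297434-22297534, plus strand): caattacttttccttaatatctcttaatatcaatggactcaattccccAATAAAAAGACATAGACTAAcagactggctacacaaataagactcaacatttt

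Word A had 14172 copies on chromosomes 1 to 19 and X. An EpiSC SOX2 peak covered 18.6% of them and an activin-free SOX2 peak, a list not used to pick the word, covered 23.0%, while EpiSC SOX2 peaks cover 1.92% of these chromosomes. The activin-free ZIC2, OTX2, POU5F1 and POU3F1 lists covered 0.0212%, 0.0847%, 0.00706% and 0.0847% of the copies, and these lists cover 4.09 to 5.71% of the chromosomes. Their EpiSC lists covered at most 0.0423%, which the choice of members without these TFs favours. The choice favours low values in the activin-free lists too. Activin-free peaks of these TFs overlapped 12.5% of members and 90.8% of SOX2 peaks with another TF. Whole chromosomes are therefore not a matched background. Likewise, picking words for their frequency in members favours a high share of copies in EpiSC SOX2 peaks. It favours the activin-free SOX2 share too, because 77.3% of members overlapped that list. These shares are therefore a description and not a measure of enrichment. Words B, C, D, E and F had 6.46 to 17.4% of copies in an EpiSC SOX2 peak, 9.65 to 21.7% in an activin-free SOX2 peak and at most 0.958% in an activin-free peak of any other TF. Between 48.1 and 77.5% of the copies of word A lay within 7000 bp of a copy of B, C, D, E or F. Words A to F together occurred in 3051 members, or 7.32%.

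Word G differed from these. It was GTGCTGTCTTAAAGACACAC, with 1378 copies, 198 members and 63 SOX2 peaks with another TF. Within 7000 bp, 5.37% of its copies lay near a copy of A, and 4.50 to 6.17% near a copy of B, C, D, E or F. In the other direction 0.55% of the copies of A lay near it, a share that its smaller number of copies limits. EpiSC SOX2 peaks covered 21.2% of its copies and activin-free SOX2 peaks 29.3%, and OTX2 covered 10.5% in EpiSCs and 31.8% in activin-free cells. ZIC2, POU5F1 and POU3F1 peaks covered 0% in either culture. Word H, with 21622 copies, was covered far less by SOX2. EpiSC SOX2 peaks covered 1.91% of its copies, close to the 1.92% of the chromosomes that they cover, and activin-free SOX2 peaks 3.61%. OTX2 covered 0.754% in EpiSCs and 3.54% in activin-free cells. Of the copies of A, 66.6% lay within 7000 bp of a copy of H. No repeat annotation was used, and whether reads from near-identical copies were placed at the right copy was not tested.

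**Figure D3:**
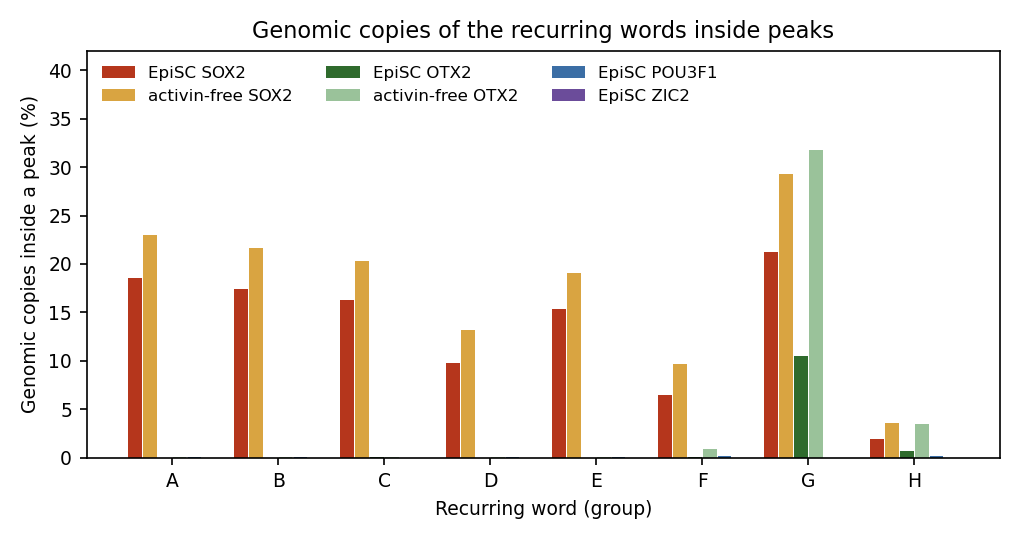
Percentage of the genomic copies of each recurring 20-base word (A to H, horizontal axis) that lie inside a peak (vertical axis) of 6 lists. SOX2 bars of both cultures stand at 6.46% or more for A to G, but at 1.91% in EpiSCs and 3.61% in activin-free cells for H. For G the OTX2 bars reach 10.5% in EpiSCs and 31.8% in activin-free cells.

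The activin-free SOX2 library was not used to choose the members. An activin-free SOX2 peak overlapped 32247 of 41701 members, or 77.3% (76.9 to 77.7%), compared with 77.9% of all distal SOX2 peaks and with 8.65% of windows of the same width 5000 bp to either side. For SOX2 peaks with another TF the share was 79.1% (78.5 to 79.6%), and members minus these gave -1.73 points (-2.42 to -1.03). Within each of the 5 score groups the interval of the difference included 0. In the lowest group, 54.6% of members and 52.8% of peaks with another TF overlapped an activin-free SOX2 peak, with an interval of the difference from -0.115 to 3.77 points, and in the highest group 98.4% and 98.2%, from -0.351 to 0.619 points.

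**Figure D4:**
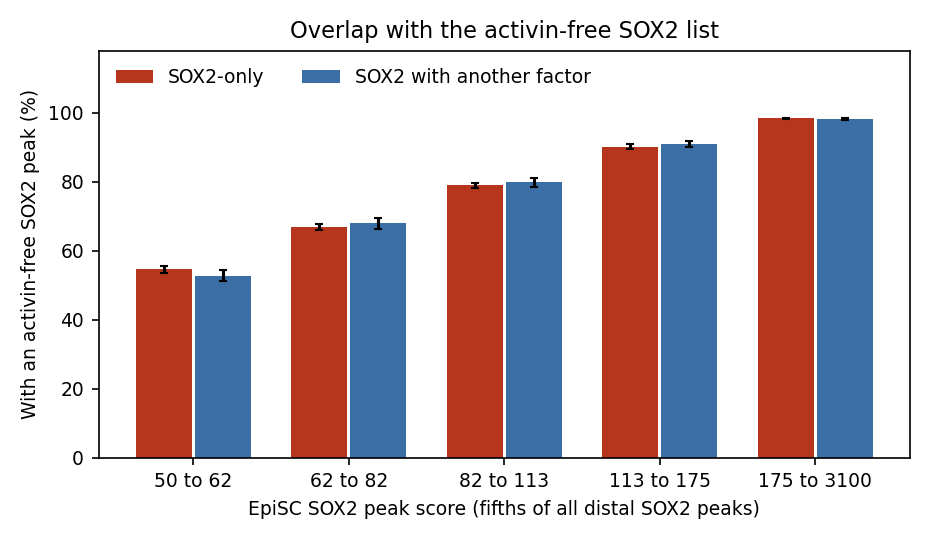
Percentage of distal EpiSC SOX2 peaks that overlap an activin-free SOX2 peak (vertical axis) in 5 groups of rising EpiSC SOX2 score (horizontal axis), for SOX2-only peaks and SOX2 peaks with another TF, with 95% Wilson intervals. Both rise from 54.6% and 52.8% to 98.4% and 98.2%, and within each group the bars differ by at most 1.82 points.

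Members with an activin-free SOX2 peak had a median EpiSC score of 108 and those without one 65.9. The activin-free peak had the higher score in 70.9% of the overlapping pairs, with a median ratio of 1.33, and the midpoints lay a median of 72.0 bp apart. Where several activin-free peaks overlapped a member, the highest-scoring was taken, which favours a higher ratio. The whole activin-free SOX2 list also had the higher median score, at 105 against 95.5. Across these 32247 pairs Spearman's rho of the 2 scores was 0.553, which is a description of paired positions in 2 libraries. At a score of at least 200 the overlap reached 98.9% of 6019 members, and at a score of at least 500 it was 99.7% of 304.

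Overlap with the activin-free SOX2 list rose with the number of SOX words, which the selection did not use. It was 73.4% (72.2 to 74.5%) of members without a SOX word, 77.4% with 2, 83.7% with 4 and 92.3% (89.9 to 94.1%) with 8 or more, although the median EpiSC scores of these groups, from 91.0 to 108, followed no such order. In each of the 5 score groups, members with 3 or more words had a higher share than those with none, at 62.4 and 47.8% in the lowest group and 99.2 and 97.6% in the highest. Members with a run of 3 ACAAA units overlapped in 90.1% (88.2 to 91.7%) and those without in 77.0%. ACAAAG was the word with the largest gap, at 38.9% of members with an activin-free SOX2 peak and 33.4% of those without, a difference of 5.56 points (4.47 to 6.64).

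Repeated sequence moved with this overlap. An activin-free SOX2 peak overlapped 64.4% (62.8 to 66.0%) of the 3325 members with 1000 or more copies, compared with 80.6% at 100 to 1000 copies, 83.4% at 10 to 100 and 77.4% below 2 copies, with median EpiSC scores of 78, 104, 110 and 93.7. Within every score group the members with 1000 or more copies had a lower share than those with under 100, with differences of -2.44 points (-4.88 to -0.886) in the highest group and from -11.5 to -8.72 points in the others. For word A the overlap was 63.4%, for word G 52.0%, and for words A to F together 69.5% (67.9 to 71.1%), against 77.9% for all other members. Among windows with fewer than 100 copies, members and SOX2 peaks with another TF overlapped in 78.3 and 79.0%, and the interval of their difference, -1.41 to 0.0190 points, included 0. At 100 copies or more the shares were 70.2% of 5151 members and 80.2% of 313 peaks with another TF, and the interval of the difference was -14.3 to -5.10 points. The classes differed in copy number there, with 1000 or more copies in 3325 of these members and 131 of these peaks. At 1000 or more copies the shares were 64.4% (62.8 to 66.0%) and 67.9% (59.5 to 75.3%). At 100 to 1000 copies they were 80.6% (78.7 to 82.4%) and 89.0% (83.6 to 92.8%). Scores were not matched in this comparison.

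Activin-free peaks of the other TFs were found at a minority of members. At least 1 activin-free peak of the other 4 TFs overlapped 12.5% (12.2 to 12.8%) of members and 90.8% of SOX2 peaks with another TF, against 37.5% of all distal SOX2 peaks. The share of members was 6.53% when activin-free scores of at least 100 were required, 4.58% when the overlap had to cover 50% of both peaks and 3.20% with the 50000 highest-scoring peaks of each activin-free list. By TF the shares at members were 6.46% for OTX2, 4.35% for POU5F1, 2.17% for POU3F1 and 0.458% for ZIC2. Members were chosen to lack these TFs. A closer background is therefore the windows 5000 bp away that also held no EpiSC peak of any of the 5 TFs. These windows had 4.10, 3.99, 1.91 and 0.471% in the same order. They were not limited by TSS distance, and unlike members they lacked an EpiSC SOX2 peak. Members exceeded the windows by 2.36 points for OTX2 (2.08 to 2.64), by 0.359 points for POU5F1 (0.111 to 0.611) and by 0.251 points for POU3F1 (0.0756 to 0.430). For ZIC2 the interval of the difference was -0.0962 to 0.0739 points. For any of the 4 TFs the windows had 9.77% (9.53 to 10.0%). Members with no EpiSC peak of another TF within 500 bp had 9.82% (9.52 to 10.1%), a limit not set for the windows. OTX2 was also more frequent at members with an activin-free SOX2 peak than at those without, at 6.77 and 5.37%, a difference of 1.4 points (0.855 to 1.92).

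Applying the same rule to the activin-free lists gave 53329 SOX2-only peaks, or 63.5% of 84013 distal activin-free SOX2 peaks. Of these, 51.5% overlapped a member, and 66.1% of the members overlapped one of them. In all, 28068 members (67.3%) had activin-free SOX2 and none of the other TFs, 8425 (20.2%) had no activin-free peak at all, and 1029 (2.47%) had another TF but not SOX2. The choice of members without the other TFs favours the overlaps and counts without them. An activin-free peak of another TF overlapped 12.5% of members, against 37.5% of all distal SOX2 peaks. Activin-free SOX2 peaks overlapped 77.3 and 77.9%. The joint counts were not made for all distal SOX2 peaks.

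Members were unevenly spread over chromosomes. Chromosome 18 held 27.8 members per Mb, against a median of 15.7 over the 20 chromosomes and 19 on the next densest, and the X chromosome held 9.30. Its share of the EpiSC SOX2 list was 1.56 times its share of the activin-free SOX2 list, and that of chromosome 11 was 1.34 times, whereas for chromosome 18 these ratios were 0.896 to 1.02 in the other 4 TFs and for chromosome 11 they were 0.984 to 1.2. Overlap with the activin-free SOX2 list was lowest on these chromosomes, at 65.4% on chromosome 18 and 72.5% on chromosome 11, against 74.0 to 82.5% on the others. Without chromosomes 11 and 18, 78.4% of 36996 members and 80.5% of SOX2 peaks with another TF overlapped an activin-free SOX2 peak. For X the ratio was 0.659 for SOX2, 0.631 for OTX2 and 0.731 for POU5F1, but 0.963 for ZIC2 and 1.01 for POU3F1. The part of the library or of the culture in these ratios was not tested. A pair of the 10 highest-scoring members, with scores of 1246 and 1025, lay in an intergenic stretch of chromosome 18, and the nearest protein-coding gene start, that of the RNA-binding protein gene Celf4, was 1900 and 1438 kb away.

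**Figure D5:**
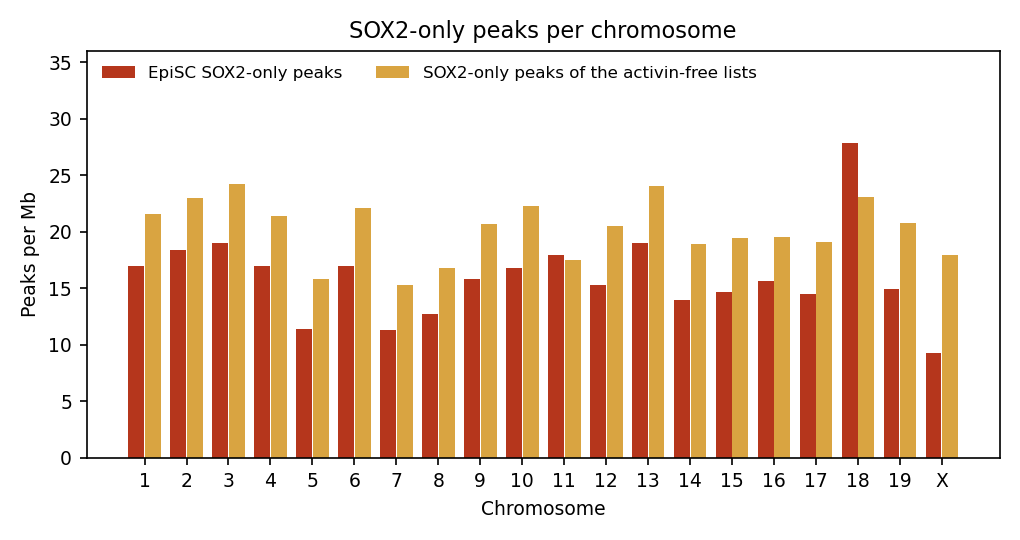
SOX2-only peaks per Mb (vertical axis) on each chromosome (horizontal axis) in EpiSCs and, by the same rule, in the activin-free lists. Chromosome 18 stands out in EpiSCs with 27.8 per Mb against 23.1 in activin-free cells, and X is lowest in EpiSCs with 9.30.

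Of the 2649 segments of 1 Mb, 2497 held a member and the median was 14 members. The densest were 55 to 56 Mb of chromosome 18 with 68 members, 29 to 30 Mb of chromosome 18 with 61, 32 to 33 Mb of chromosome 10 with 57, 28 to 29 Mb of chromosome 18 with 56, and 25 to 26 Mb of chromosome 11 with 55. Between 0 and 3 protein-coding genes started in each. The activin-free lists held 46 to 57 SOX2-only peaks in these segments.

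The members' place relative to genes was close to that of their surroundings. By midpoint, 62.8% were intergenic, 35.5% were in introns of protein-coding genes and 1.74% in exons, and positions 5000 bp away gave 62.6, 35.3 and 2.07%. SOX2 peaks with another TF were more often intronic, with 45.0%, and members minus these gave -9.57 points (-10.4 to -8.74), and those with OTX2 only reached 54.3%. The median distance to a TSS was 37.7 kb for members, 31.2 kb for SOX2 peaks with another TF, 53.3 kb with POU factors only and 15.7 kb with OTX2 only.

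Of the 22350 protein-coding genes, 12518 (56.0%) had at least 1 member within 50 kb of a TSS, and the median was 1 member. The 5 gene lists were read against this share. Neural genes had a member in 16 of 29 (55.2%), SOX family genes in 10 of 18 (55.6%), mesoderm and endoderm genes in 15 of 30 and pluripotency genes in 13 of 29 (44.8%), all near or below the share of all genes. Neuronal adhesion genes had one in 24 of 30, a median of 5.5 members, with a median gene length of 967 kb against 15.4 kb for all genes. Per 100 kb of gene body, the neuronal adhesion list held 2.17 members, the neural list 2.68, the SOX family 2.29, the mesoderm and endoderm list 1.21, the pluripotency list 1.08 and all protein-coding genes 1.55.

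In the neural list, Meis2, a homeobox gene of the TALE class, had 6 members within 50 kb of a TSS, and its highest was a peak of score 456 from 115821425 to 115823419 with an activin-free score of 924. Zic1, a zinc finger gene of the neural plate, Pax6, the eye and forebrain regulator, and Dll1, a Notch ligand gene, had 5 each, with highest scores of 305, 304 and 218 and activin-free scores of 506, 728 and 152. An activin-free SOX2 peak overlapped 5 of the 6 members of Meis2, 5 of 5 of Zic1, 3 of 5 of Pax6 and 4 of 5 of Dll1.

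In the SOX family, Sox6 had 10 members and Sox5 had 4, both SOXD genes that act in glia and cartilage. All of these overlapped an activin-free SOX2 peak, with highest EpiSC scores of 268 and 345. Sox30 had 4 members, the highest of score 358, and Sox17, the endoderm regulator, had 3, the highest of score 261. Sox2 itself had 2 members within 50 kb, the higher of score 91.2, and neither overlapped an activin-free SOX2 peak.

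In the pluripotency list, Zic2 and Lin28b, an RNA-binding protein gene that blocks let-7 maturation, had 4 members each and Klf4 and Zfp42, both genes of naive pluripotency, had 2 each. Their highest scores were 186, 119, 204 and 109. In the mesoderm and endoderm list, Kdr, the VEGF receptor gene, Cxcr4, a chemokine receptor gene, Sox17 and Cer1, a secreted Nodal inhibitor gene, had 3 members each. The Kdr member of score 740, from 76337662 to 76338736 in an intron, had an activin-free score of 680. Among neuronal adhesion genes, Ptprd had 16 members, Nrxn3 15, Opcml 13 and Lrp1b 11, with highest scores of 359, 479, 286 and 230.

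Counted over gene bodies, the genes with the most members were long. Dlg2, a postsynaptic scaffold gene of 1945 kb, had 64, Lrp1b 57, Macrod2 and Ptprd 53 each, Nrxn3 and Pde4d 51 each, Cntn5 50, Fhit 45, and Cntnap5a and Magi2 42 each. The density ranged from 2.33 per 100 kb in Ptprd to 4.68 in Cntnap5a, which the choice of genes with the most members favours. Distal SOX2 peaks with another TF numbered 35 in Dlg2, 53 in Lrp1b, 12 in Cntnap5a and 45 in Magi2, where members make up 68.1% of distal SOX2 peaks over all chromosomes.

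The values that define the members are given for description. Their scores had a median of 94.0 with quartiles of 65.3 and 150, and their widths a median of 719 bp, while SOX2 peaks with another TF had score quartiles of 68.0 and 163 and a median width of 737 bp. Members lay a median of 2.79 kb from the nearest peak of another TF, most often POU3F1 at under 5000 bp (36.5%), and 5567 (13.3%) lay within 500 bp of one. At the threshold itself, the 3 nearest members touched a POU3F1 or POU5F1 peak with a gap of 0 bp and had scores of 326, 249 and 218, and the 3 peaks just outside shared 1 bp with an OTX2 or ZIC2 peak and had scores of 296, 261 and 162. By TSS distance, the 3 members just inside lay 1004 to 1007 bp away with scores of 89.8, 88.7 and 50.9, and the 3 peaks just outside lay 999 to 1000 bp away with scores of 184, 135 and 108. A further 945 SOX2 peaks without another TF lay within 1000 bp of a TSS and were left out.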

How the data were processed

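Peaks of 5 TFs in EpiSCs and activin-free EpiSCs were analysed. Reads had been aligned by the authors with Bowtie2 against the mm9 genome, and the authors called peaks with MACS1.4 against input DNA and deposited 1 list per library, with a score for each peak that is -10 log10 of its p-value and is at least 50. The input was not analysed here. Depth is unknown, and score differences can follow depth. Overlap meant 1 shared bp, TSSs (86803 distinct) and genes came from GENCODE vM1, and sequence came from the mm9 reference. Repeat annotation was not used. Members and gene lists were chosen with earlier results of these data known.

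Members named were the 10 highest scores, the 5 with most SOX words, per gene list the 4 genes with most members within 50000 bp of a TSS, the 10 genes with most members, the 5 densest 1 Mb segments, and the 3 peaks on each side of both thresholds. The choice of Sox2 and of words A to H followed inspection of the values. Alternatives covered score, gap, overlap, window, word and list size. Python 3.11.15 with numpy 2.4.6 was used, and overlap, intervals and word search were tested on simulated data. No group had replicates. A gene and some sequences that this rule names are not reported here.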

Additional observations from a re-analysis of the deposited data

How the results depend on the processing

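No paired analysis was possible because each TF had 1 library in each culture. Of 52 alternatives over 7 results, 20 stayed within the counting interval, or within 1.5 times for the number of peaks, and 32 moved outside it. The sign of a difference changed in 0 of them, and the counts and shares could not change direction. Requiring a score of at least 100 left 19201 SOX2-only peaks. It moved the share with an activin-free SOX2 peak from 77.3 to 92.4%, the difference from peaks with another TF to -0.732 points, the share with another activin-free TF from 12.5 to 13.6%, the SOX word difference from 29.1 to 27.2 points and the repeated sequence difference from 10.8 to 9.03 points. The activin-free SOX2 share was 70.7% with overlap of 50% of both peaks, 65.6% with midpoints within 200 bp, 73.7% for SOX2 peaks under 1000 bp, 58.5% with the 50000 highest-scoring activin-free peaks, and, added after seeing the data, 78.4% without chromosomes 11 and 18 and 78.3% under 100 copies. Its difference became -2.61, -2.69 and -3.72 points under 50% overlap, midpoints and the 50000 highest, and -0.698 points under 100 copies and -0.154 points as the mean within the 5 score groups, where the intervals included 0. The share with another activin-free TF was 9.82% without neighbours within 500 bp, 4.58% with 50% overlap, 6.53% for activin-free scores of at least 100, 3.20% for the 50000 highest of each list and 13.4% under 100 copies. The SOX word difference was 16.8 points in windows reaching 200 bp, 26.3 for ACAAAG and ACAATG only, 30.1 with flanks 2000 bp away and 29.9 under 100 copies. The octamer difference from SOX2 peaks with POU factors, -1.57 points, was -0.744 in windows reaching 50 bp, -3.36 in windows reaching 200 bp, -9.93 with 1 mismatch and -2.95 where both POU factors were present. The repeated sequence difference was 15.6 points at 10 copies or more and 7.30 at 1000 or more. Stricter overlap and fewer activin-free peaks lower an overlap share by construction, and the other causes were not tested. Depth is unknown, which limits what can be said of peaks near the lowest score of 50.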
